A study of Nothobranchius furzeri with 8 samples.

Results

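The 5 tRNAs described here are the mitochondrial tRNAs mito_tRNA-Trp-CCA, mito_tRNA-Asp-GTC, mito_tRNA-Lys-TTT, mito_tRNA-Gly-TCC and mito_tRNA-Arg-TCG. They were chosen for the place of their genes on the H-strand of vertebrate mitochondrial DNA, between ND2 and ND4L, and they are 5 of 23 mitochondrial and of 72 mitochondrial and nuclear anticodons counted. tRNA-seq was carried out on brains of the African turquoise killifish (Nothobranchius furzeri), a short-lived vertebrate used to study aging. There were 4 young fish at 5 wph (weeks post hatching) and 4 old fish at 39 wph (the labels word the old age as 39-40 weeks), with 2 males and 2 females of each age and no further treatment. The labels give each brain as a sample of its own and do not say more about how the fish were kept together, so p-values measure the spread between these samples. The tables hold tRNAs alone, and the tissue could therefore not be checked against marker genes.

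Vertebrate mitochondrial DNA is copied from both strands into long transcripts, in which tRNAs sit between the messages and mark where these are cut apart. In the usual vertebrate order the tryptophan tRNA follows ND2, the aspartate tRNA lies between COX1 and COX2, the lysine tRNA between COX2 and ATP8, the glycine tRNA between COX3 and ND3, and the arginine tRNA between ND3 and ND4L. Once cut out, each tRNA receives its CCA end from an enzyme, is charged with its amino acid by a nuclear-encoded synthetase and serves the mitochondrial ribosome, which makes subunits of the respiratory chain and of the ATP synthase. In the RefSeq annotation of the killifish, the protein genes between ND2 and ND4L follow this order (COX1, COX2, ATP8, ATP6, COX3, ND3), with 10 tRNA genes among them on both strands. RefSeq lists those 10 by locus tag only, so the place of each tRNA is that of the vertebrate order, and the anticodons are spelled as in the deposited tables.

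Each tRNA was counted as 1 transcript of 1 gene, so that none of the 5 shared its counts with a cluster of similar tRNAs. The reads of a sample numbered between 717858 (young male 2) and 3112101 (old female 2), and mitochondrial tRNAs took 7.78 to 9.995% of them. The reads of single tRNAs ranged from 1901 for mito_tRNA-Arg-TCG in young male 2 to 21753 for mito_tRNA-Trp-CCA in old female 2. The widest 95% Wilson interval spanned 0.431 points for a share of mitochondrial reads and 4.24 points for a charged share, and these intervals cover counting error only. No 2 brains of one age held the same mitochondrial counts up to sampling noise, as the chi-square per degree of freedom was at least 18.4.

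Relative abundance was the share of a tRNA among all mitochondrial reads of a sample. Together the 5 tRNAs took less of the mitochondrial pool in every old brain than in any young brain. By brain, the summed share was 29.2, 28.5, 29.7 and 28.6% in the young, listed as male 1, male 2, female 1 and female 2, an order kept for all values below. In the old it was 22.8, 23.0, 22.9 and 23.0%. The summed share thus fell from 29.0% ± 0.558 to 22.9% ± 0.120 (SD, n = 4 each), a difference of −6.08 points (two-sided exact permutation test, p = 0.0286, the smallest that the 70 relabellings can give). In bulk brain tissue, fewer cells rich in a tRNA and less of it per cell cannot be told apart.

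**Figure D1:**
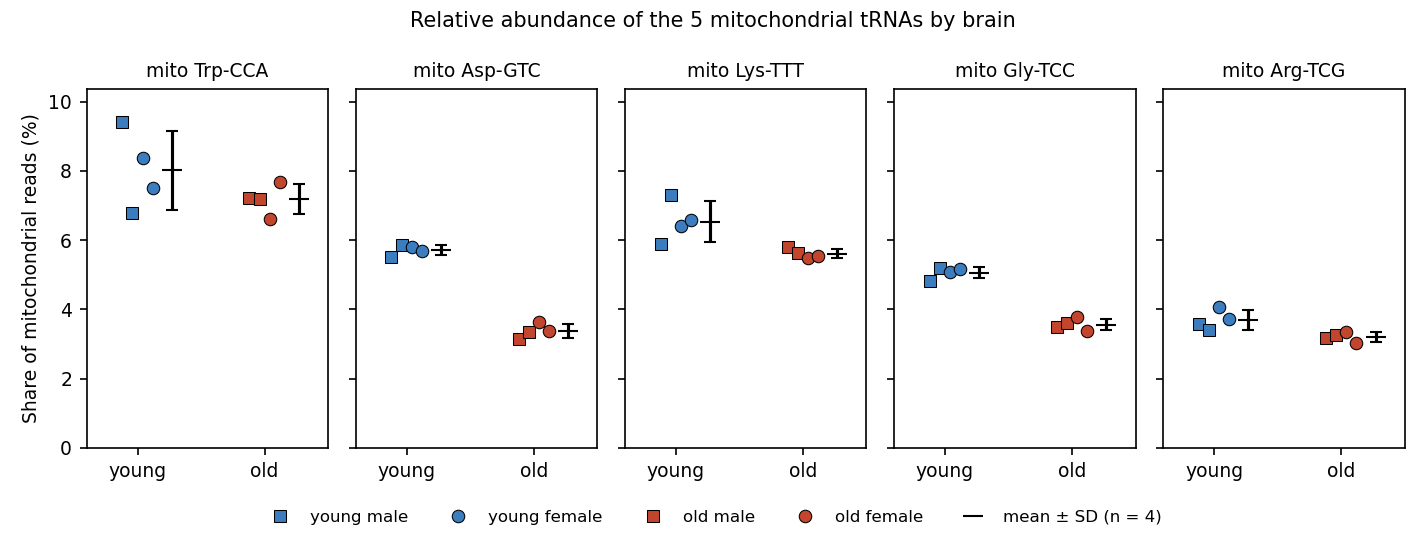
Share of mitochondrial reads (%, y axis, from 0) of each of the 5 tRNAs in young and old brains (x axis), with 1 point per brain and the mean ± SD of 4 brains at the side. The old brains lie below all young brains for mito_tRNA-Asp-GTC, mito_tRNA-Gly-TCC, mito_tRNA-Lys-TTT and mito_tRNA-Arg-TCG, and the ages overlap for mito_tRNA-Trp-CCA.

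mito_tRNA-Asp-GTC, which reads the aspartate codons, had the largest fall of all 22 mitochondrial anticodons tested. Its share was 5.51, 5.85, 5.80 and 5.68% in the young brains and 3.13, 3.36, 3.63 and 3.38% in the old brains. Both ages were narrow and far apart, with a mean of 5.71% ± 0.152 in the young and 3.37% ± 0.205 in the old, a log2 change of −0.76 (SE 0.07, edgeR's quasi-likelihood test, adjusted p = 6.62e-06).

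mito_tRNA-Gly-TCC, the glycine tRNA, followed with a fall of the same kind. Its share was 4.82, 5.19, 5.07 and 5.16% in the young and 3.49, 3.61, 3.77 and 3.38% in the old. The gap between the lowest young and the highest old brain was wider than the range of either age. The means were 5.06% ± 0.165 and 3.56% ± 0.164, a fall of 0.51 on the log2 scale (SE 0.06) with an edgeR adjusted p of 0.000154.

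mito_tRNA-Lys-TTT, whose gene is known in humans from mutations in myoclonic epilepsy with ragged red fibres, fell less. Its share was 5.88, 7.29, 6.40 and 6.58% in the young brains and 5.80, 5.62, 5.48 and 5.55% in the old brains. The ages did not overlap, but young male 1 came close to old male 1. The means were 6.54% ± 0.583 and 5.61% ± 0.136, a fall of 0.22 on the log2 scale (SE 0.07) with an edgeR adjusted p of 0.0445. The adjusted p was above 0.05 in 7 of the 8 fits that left out a brain (0.0681 to 0.111), with the sexes or the replicate block as a factor, and after TMM normalization over all anticodons (log2 change −0.11, adjusted p = 0.368). Of all 19 alternatives, only 4 kept the adjusted p below 0.05. The lowest was 0.00535, in edgeR after TMM normalization within the mitochondrial anticodons alone.

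mito_tRNA-Arg-TCG was the least abundant of the 5. Its share was 3.57, 3.40, 4.07 and 3.71% in the young brains and 3.18, 3.26, 3.35 and 3.02% in the old brains. The ages did not overlap, by a margin that was small beside the young range. The means were 3.69% ± 0.283 and 3.20% ± 0.140, and the estimate of −0.20 (log2, SE 0.07) had an edgeR adjusted p of 0.0644. The adjusted p was below 0.05 without young male 2 (0.0426) and when the mitochondrial anticodons were fitted alone (0.0237). It was lowest, at 0.00535, in edgeR after TMM normalization within the mitochondrial anticodons alone. Set against the reads of the synthetic E. coli spike-in, the estimate turned to 0.0521. Of all 19 alternatives, 15 kept the direction and the call of the main fit.

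mito_tRNA-Trp-CCA, the tryptophan tRNA that follows ND2, was the most abundant of the 5 and the only one whose ages overlapped. Its share was 9.42, 6.78, 8.38 and 7.50% in the young brains and 7.22, 7.19, 6.62 and 7.69% in the old brains. Young brains spread more widely than old brains, and young male 2 lay below 3 of the 4 old brains. The means were 8.02% ± 1.14 and 7.18% ± 0.438 (log2 change −0.16, SE 0.09, adjusted p in edgeR 0.243). Among the 4 young brains the order of mito_tRNA-Trp-CCA was the reverse of that of mito_tRNA-Lys-TTT, and it was also the order of the samples' total reads (2683877, 1999204, 1966110 and 717858). The old brains did not keep to this match. Old female 1 had the lowest share with 2636616 reads, and old male 2 had 7.19% with the fewest old reads (1539158). The part of depth in the young order was not tested.

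In the fit over all 69 nuclear and mitochondrial anticodons that passed the filter on low counts, 8 fell with an adjusted p below 0.05, a background of 11.6%, and 3 of these 8 were among the 5 tRNAs. A further 9 rose, and none of the 5 was among them. Calls were more common among mitochondrial anticodons, of which 5 of 22 fell and 6 rose, the members included. Of the 47 nuclear anticodons 3 fell and 3 rose. The estimates of the 5 tRNAs were all below 0, with a median of −0.22. The median was 0.02 over all 69 anticodons and 0.03 over the 22 mitochondrial ones. Every old brain lay below every young brain for 4 of the 5 tRNAs, for 6 of the 22 mitochondrial anticodons and for 8 of all 69 (11.6%). Of the other mitochondrial tRNAs, mito_tRNA-Thr-TGT (log2 change −0.50, edgeR adjusted p = 0.00651) and mito_tRNA-Glu-TTC (−0.49, adjusted p = 0.0173) also fell. The largest rises were those of mito_tRNA-Asn-GTT (0.90, adjusted p = 0.00018), mito_tRNA-Met-CAT (0.58, adjusted p = 0.0211) and mito_tRNA-Gln-TTG (0.40, adjusted p = 0.00453). mito_tRNA-Asn-GTT went from 1.70% ± 0.104 to 3.19% ± 0.591 of the mitochondrial reads, and its gene stands on the L-strand in the same stretch between ND2 and ND4L. Nearly all reads of mito_tRNA-Asn-GTT and mito_tRNA-Met-CAT with a counted 3′ end lacked a CCA or CC end (young means 98.9% and 99.7%). mito_tRNA-Met-CAT had only 66 reads in young male 2.

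**Figure D2:**
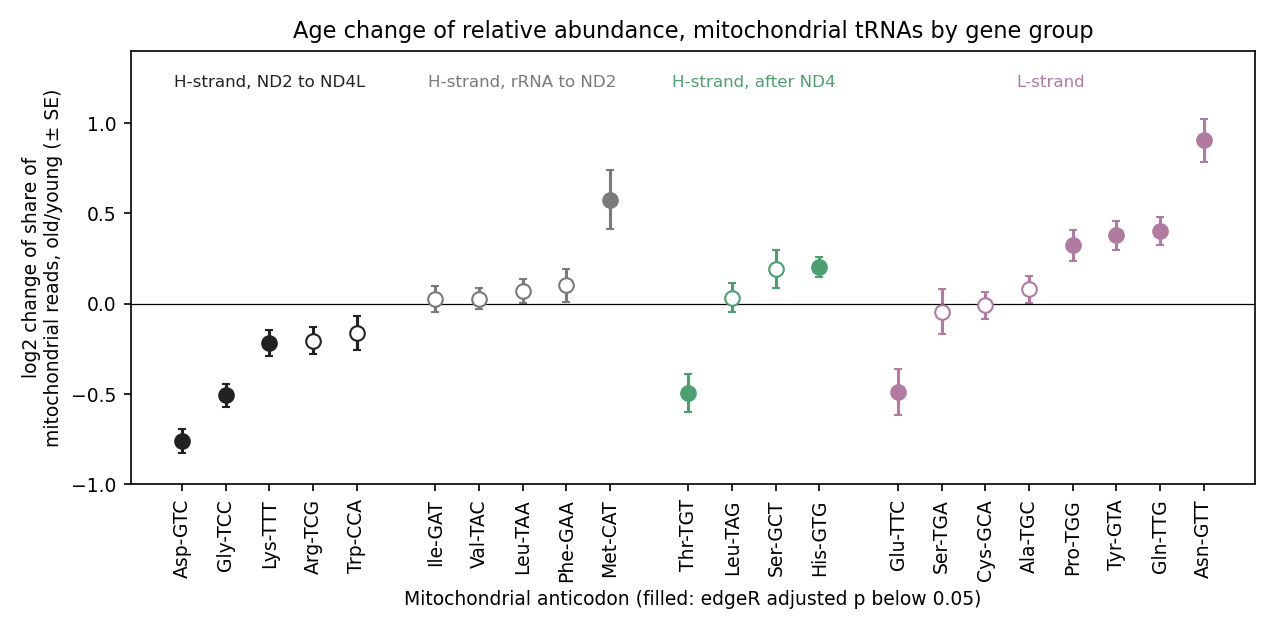
Log2 change of the share of mitochondrial reads between old and young brains (y axis, ± SE from edgeR) for the 22 mitochondrial anticodons tested (x axis), grouped by the place and strand of their genes and sorted within a group. The 5 tRNAs of the group at the left all have estimates below 0, from −0.76 to −0.16, and the group of the L-strand runs from −0.49 to 0.90.

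Since shares of one pool add up to 100%, the 5 tRNAs were set directly against the other mitochondrial tRNAs. The genes that follow the rRNAs up to ND2 on the H-strand (Phe, Val, Leu-TAA, Ile and Met) gave 34.0% ± 0.760 of the mitochondrial reads in young brains and 35.4% ± 1.39 in old brains. The H-strand genes after ND4 (His, Ser-GCT, Leu-TAG and Thr) gave 16.2% ± 0.812 and 17.6% ± 0.626, and the 8 L-strand genes gave 20.8% ± 0.911 and 24.1% ± 0.719. In this last group, nearly all end-counted reads of Ala, Asn, Cys and Ser-TGA lacked a CCA or CC end (young means 98.4% to 99.99%). The log2 ratio of the summed reads of the 5 tRNAs to those of a group fell by 0.40 against the first group, by 0.46 against the second and by 0.55 against the third. All 3 ratios were lower in every old brain than in any young brain (two-sided exact permutation test, p = 0.0286 each, Benjamini-Hochberg adjusted p = 0.0343 over 6 comparisons). With the mean over tRNAs in place of summed reads the 3 ratios were also lower in every old brain (exact p = 0.0286 each), but the adjusted p was 0.0571. The exact p of the 3 ratios was the smallest possible in both forms. Their adjusted p differed because the 6 comparisons include those of charging, fewer of which reached that p as means.

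The size of the falls depended on what the reads were set against. Per 1000 nuclear-encoded reads, mito_tRNA-Asp-GTC went from 5.21 to 3.38 and mito_tRNA-Gly-TCC from 4.62 to 3.58, with no overlap of the ages (exact permutation test, p = 0.0286 each). mito_tRNA-Trp-CCA, mito_tRNA-Lys-TTT and mito_tRNA-Arg-TCG overlapped on this scale (exact permutation p = 0.857, 0.400 and 0.543). With nuclear reads as library size in edgeR, mito_tRNA-Asp-GTC (log2 change −0.62, adjusted p = 0.000121) and mito_tRNA-Gly-TCC (−0.37, adjusted p = 0.0124) were 2 of 6 anticodons that fell, a background of 8.7%. With the reads of the synthetic E. coli spike-in as library size, none of the 5 passed the test in edgeR, in which 1 of the 69 anticodons was called and 9 had an unadjusted p below 0.05. The median of all anticodons then moved to 0.15, and the estimates were −0.49 for mito_tRNA-Asp-GTC, −0.24 for mito_tRNA-Gly-TCC and between 0.05 and 0.08 for the other 3 tRNAs. The log2 ratio of the 5 tRNAs to the spike-in had an SD of 0.34 in young and 0.28 in old brains. How much of this spread came from the spike-in and how much from the tRNAs was not tested.

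Within the 5 tRNAs the composition shifted as well. Of the reads of the 5, mito_tRNA-Asp-GTC gave 19.7% ± 0.688 in young and 14.7% ± 0.893 in old brains, and mito_tRNA-Gly-TCC 17.5% ± 0.794 and 15.5% ± 0.747 (exact permutation test, p = 0.0286 each). The shares of mito_tRNA-Trp-CCA (27.6% and 31.3%), mito_tRNA-Lys-TTT (22.6% and 24.5%) and mito_tRNA-Arg-TCG (12.7% and 14.0%) had exact permutation p of 0.143, 0.229 and 0.0571. Without mito_tRNA-Asp-GTC and mito_tRNA-Gly-TCC, the summed share of the remaining 3 tRNAs was 18.2% ± 0.720 in young brains and differed by −2.25 points in old brains, and the ages did not overlap (exact permutation test, p = 0.0286). This sum was chosen after the data had been seen.

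Over all 8 brains, the order of abundance was mito_tRNA-Trp-CCA (7.60% of mitochondrial reads), mito_tRNA-Lys-TTT (6.08%), mito_tRNA-Asp-GTC (4.54%), mito_tRNA-Gly-TCC (4.31%) and mito_tRNA-Arg-TCG (3.45%). The order was taken from the same 8 brains that were then tested, both ages together. Most neighbours in this order differed within brains (exact sign-flip tests over 8 brains, adjusted p between 0.0188 and 0.0234 over 12 comparisons), apart from mito_tRNA-Asp-GTC and mito_tRNA-Gly-TCC (adjusted p = 0.222). The order of these 2 turned with age, with mito_tRNA-Asp-GTC above mito_tRNA-Gly-TCC in all 4 young brains (by 0.648 points ± 0.0911, SD) and below it in all 4 old brains (−0.189 points ± 0.152). Among the 23 mitochondrial anticodons, mito_tRNA-Asp-GTC stood at place 6 in young and place 14 in old brains, and mito_tRNA-Gly-TCC at place 9 and place 12.

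Likeness was measured as the root mean square difference of log2 shares over the 8 brains, each centred on its mean. mito_tRNA-Asp-GTC and mito_tRNA-Gly-TCC were most like each other (0.13), while the median distance of mito_tRNA-Asp-GTC to the 21 others was 0.41. mito_tRNA-Lys-TTT was most like mito_tRNA-Arg-TCG (0.13), and mito_tRNA-Trp-CCA and mito_tRNA-Arg-TCG were most like mito_tRNA-Ile-GAT (0.13 each). The next tRNA was nearly as close in both cases. It was mito_tRNA-Cys-GCA for mito_tRNA-Trp-CCA (0.134 against 0.133) and mito_tRNA-Lys-TTT for mito_tRNA-Arg-TCG (0.130 against 0.128). These distances are descriptions of 8 brains that share one pool of reads.

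Reads ending in CCA came from tRNAs that carried an amino acid and reads ending in CC from tRNAs that did not, and the charged share was that of CCA among both. It did not pass the test of age for any of the 5 tRNAs. The old means lay within 3.14 points of the young means, and 4 of the 5 were higher. In edgeR's quasi-likelihood test on CCA and CC counts, 1 of 64 anticodons had an adjusted p below 0.05, a background of 1.56%, and 21 had an unadjusted p below it. None of the 17 mitochondrial anticodons tested was below it even unadjusted. The median change in log2 odds was 0.06 for the 5 tRNAs, 0.06 for the 17 mitochondrial anticodons and −0.58 for all 64.

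mito_tRNA-Trp-CCA had nearly the same charged share in all young brains, at 80.1, 79.5, 79.7 and 80.1%. In the old brains it was 81.3, 75.2, 78.1 and 83.6%. The old brains surrounded the young ones on both sides. The means were 79.8% ± 0.269 and 79.5% ± 3.68 (log2 odds changed by −0.01, SE 0.29, adjusted p in edgeR 0.972).

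mito_tRNA-Gly-TCC had the largest difference of the 5, with charged shares of 76.3, 68.9, 74.9 and 67.7% in the young and 74.5, 68.4, 79.6 and 77.8% in the old brains. The ages overlapped over most of their range. The means were 72.0% ± 4.29 and 75.1% ± 4.97 (log2 odds changed by 0.24, SE 0.28, adjusted p in edgeR 0.510).

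mito_tRNA-Asp-GTC was the least charged of the 5, at 72.0, 67.1, 74.0 and 66.1% in the young and 70.9, 60.6, 75.3 and 74.6% in the old brains. Old male 2 was the lowest value of all 5 tRNAs in any brain. The change in log2 odds of mito_tRNA-Asp-GTC was 0.06 (SE 0.28, adjusted p in edgeR 0.898), and it was below 0 in 4 of the 8 fits that left out a brain.

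mito_tRNA-Lys-TTT was charged to 79.0, 68.8, 79.6 and 72.2% in the young and 76.0, 70.2, 77.5 and 79.4% in the old brains. mito_tRNA-Arg-TCG was charged to 82.2, 75.9, 82.4 and 75.9% in the young and 80.7, 78.0, 81.7 and 77.9% in the old brains. All old values of both lay inside the young range. The changes in log2 odds were 0.06 (SE 0.29, adjusted p in edgeR 0.898) for mito_tRNA-Lys-TTT and 0.03 (SE 0.27, adjusted p = 0.947) for mito_tRNA-Arg-TCG.

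Apart from mito_tRNA-Trp-CCA, the young brains fell into the same pattern for each tRNA, with young male 1 and young female 1 above young male 2 and young female 2. In the old brains, old male 2 was the lowest for 4 of the 5 tRNAs, the exception being mito_tRNA-Arg-TCG. Over the 8 brains mito_tRNA-Trp-CCA (79.7%) and mito_tRNA-Arg-TCG (79.4%) were charged most, and their order was not told apart (sign-flip exact p = 0.805). mito_tRNA-Arg-TCG was charged more than mito_tRNA-Lys-TTT (75.3%, adjusted p = 0.0234, exact sign-flip test), which was not told apart from mito_tRNA-Gly-TCC (73.5%, adjusted p = 0.0938). mito_tRNA-Asp-GTC (70.1%) lay below mito_tRNA-Gly-TCC in all 8 brains (adjusted p = 0.0188, exact sign-flip test). This order of charging was taken from the same 8 brains.

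Summed over the 5 tRNAs, the charged share was 78.0, 71.8, 78.2 and 72.8% in the young and 77.4, 71.3, 78.3 and 79.7% in the old brains. The means were 75.2% ± 3.35 and 76.7% ± 3.73, and the difference of 1.48 points lay within the spread of either age (two-sided exact permutation test, p = 0.629). Counted over all 4 kinds of ends, the difference turned to −0.762 points (exact p = 0.857), and with the charged share scaled to the spike-in to −0.0358 points (exact p = 0.971).

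Against the other mitochondrial tRNAs with at least 100 CCA or CC reads in every sample (4 in each group), the summed log2 odds of charging of the 5 went down by 0.24 relative to the H-strand genes from the rRNAs to ND2 and up by 0.26 relative to the L-strand genes (exact permutation test, adjusted p = 0.0343 each over 6 comparisons). Relative to the H-strand genes after ND4 the difference was 0.12 (adjusted p = 0.400, exact permutation test). As means over tRNAs in place of sums, the first 2 differences were −0.20 (adjusted p = 0.214, exact permutation test) and 0.04 (adjusted p = 0.377). Leaving out any 1 young brain gave an adjusted p of 0.0686 for the first (exact permutation tests).

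The nuclear tRNAs of the same 5 amino acids serve the ribosomes of the cytosol. In humans, lysine and glycine tRNAs of both compartments are charged by the products of one gene each (KARS1 and GARS1). The charged share of the nuclear tRNAs, summed over the anticodons of an amino acid, was lower in old brains, with differences from −11.4 points (Lys) to −13.6 points (Arg), and each of these 5 differences had an exact permutation p of 0.0857 or 0.114. The nuclear share was lowest in old female 1 for all 5 amino acids, at 34.4% for Arg, 33.8% for Asp, 39.8% for Gly, 47.1% for Lys and 43.4% for Trp. In the same brain the charged shares of the 5 mitochondrial tRNAs were between 75.3 and 81.7%. Old female 2 was the highest old brain on the nuclear side, with 59.2 to 68.7%.

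**Figure D3:**
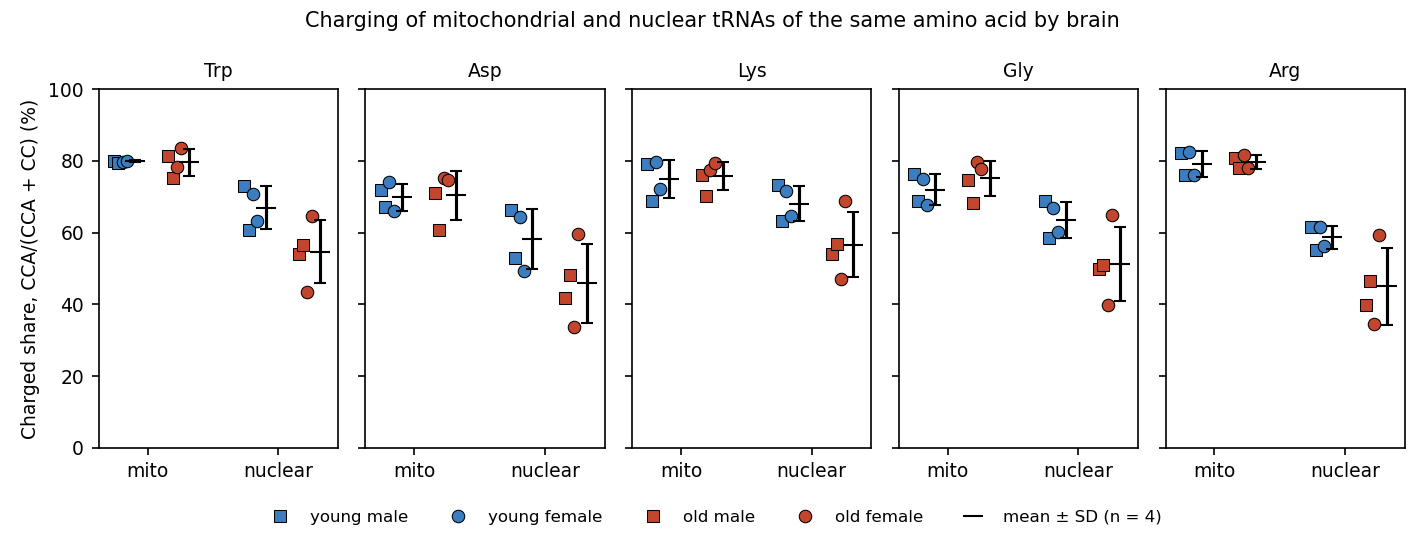
Charged share (CCA over CCA plus CC, %, y axis) of the mitochondrial tRNA and of the summed nuclear tRNAs of each amino acid (x axis), with 1 point per brain and the mean ± SD of 4 brains at the side. Mitochondrial means lie between 69.8 and 79.8% at both ages, and nuclear means lie between 58.2 and 68.1% in young and between 45.0 and 56.7% in old brains.

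The gap between compartments was taken as the log2 odds of charging of the mitochondrial tRNA minus that of the nuclear tRNAs in the same brain. For mito_tRNA-Gly-TCC it was 0.54, 0.66, 0.57 and 0.47 in the young and 1.56, 1.06, 2.57 and 0.93 in the old brains. All old brains were above all young brains, with a mean difference of 0.97. For mito_tRNA-Lys-TTT it was 0.46, 0.37, 0.64 and 0.51 in the young and 1.43, 0.84, 1.96 and 0.81 in the old brains, a mean difference of 0.76 with no overlap. Both had an exact permutation p of 0.0286 and an adjusted p of 0.0653 over the 16 amino acids with enough reads in both compartments. The ages did not overlap for 7 of these 16 amino acids, a background of 43.8%, and the mean gap was wider in old brains for all 16. The gaps of Arg (0.83), Asp (0.79) and Trp (0.75) were wider in old brains by a similar size, but their ages overlapped (adjusted p = 0.176, 0.176 and 0.137, exact permutation tests). Without old female 2, the adjusted p was 0.0457 for Gly (difference 1.17), Lys (0.92) and Arg (1.16) in the exact permutation test. These were 3 of the 10 amino acids that passed among the 16, a background of 62.5%. With all brains kept, and with any other single brain left out, none of the 16 passed. The exact test cannot go below p = 0.0286, so an amino acid passes after adjustment only if many of the 16 reach that p. Passing or failing here therefore counts amino acids at the smallest p and says little about any 1 of them.

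Reads that ended in C or in none of the CCA bases were counted as shortened 3′ ends, a name for the end of the read alone. Whether the missing bases had been lost or not yet added was not tested. In young brains they made up 16.7% ± 3.65 of the reads of mito_tRNA-Arg-TCG, the largest share among the 17 mitochondrial anticodons whose CCA and CC reads together reached 100 in each brain, and only 6.90% ± 2.22 of those of mito_tRNA-Lys-TTT, at place 14 of these. The 6 mitochondrial anticodons left out of this ranking by that minimum had young means between 98.4% and 100%, so that mito_tRNA-Arg-TCG was not the highest of all 23. Over the 8 brains the order was mito_tRNA-Arg-TCG (19.3%), mito_tRNA-Gly-TCC (17.1%), mito_tRNA-Asp-GTC (15.8%), mito_tRNA-Trp-CCA (11.5%) and mito_tRNA-Lys-TTT (7.74%), and each differed from the next (exact sign-flip tests, adjusted p between 0.0188 and 0.0417). This order, too, was taken from the brains that were tested.

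The shortened share of mito_tRNA-Arg-TCG was 14.2, 17.5, 13.5 and 21.5% in the young and 21.1, 24.5, 23.8 and 18.3% in the old brains. That of mito_tRNA-Asp-GTC was 11.1, 13.9, 11.5 and 17.0% in the young and 17.2, 24.6, 21.4 and 10.1% in the old brains. For mito_tRNA-Gly-TCC it was 12.6, 16.8, 12.9 and 17.7% in the young and 19.5, 25.8, 21.3 and 10.5% in the old brains. In mito_tRNA-Asp-GTC and mito_tRNA-Gly-TCC the brain old female 2 lay below all young brains, while the other 3 old brains lay above all of them. mito_tRNA-Trp-CCA went from 10.9% ± 2.16 to 12.1% ± 3.02 and mito_tRNA-Lys-TTT from 6.90% ± 2.22 to 8.57% ± 2.06. For mito_tRNA-Trp-CCA old female 2, at 8.61%, also lay below all young brains.

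All 5 estimates of the age change were above 0, from 0.16 to 0.51 on the log2 scale (median 0.39), as were 66 of all 68 (median 0.93). None of the 68 anticodons passed the test in edgeR, a background of 0%, and 19 nuclear anticodons but no mitochondrial one had an unadjusted p below 0.05. Leaving out any single brain other than old female 2 also gave none. Without old female 2, 53 of 68 anticodons passed with a higher share in old brains, a background of 77.9%. Among them were mito_tRNA-Asp-GTC (log2 change 0.80, edgeR adjusted p = 0.0142), mito_tRNA-Gly-TCC (0.70, adjusted p = 0.0313) and mito_tRNA-Arg-TCG (0.61, adjusted p = 0.0451). In the summed abundance of the 5 tRNAs old female 2 did not stand apart, at 23.0%.

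**Figure D4:**
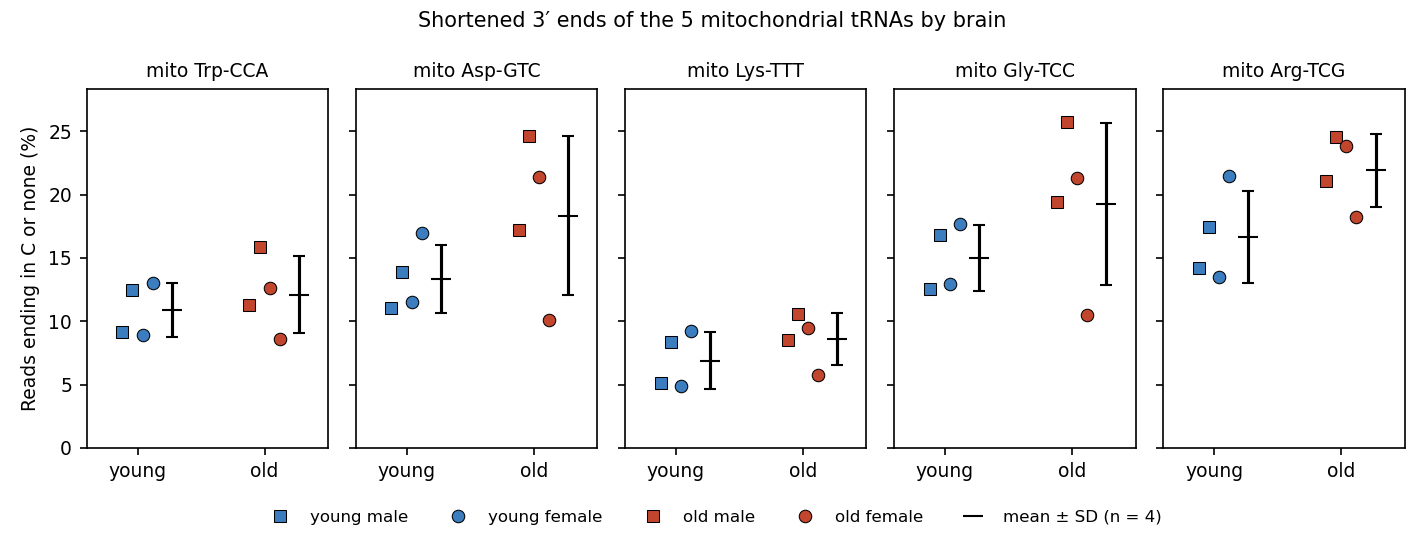
Share of reads that end in C or in none of the CCA bases (%, y axis, from 0) for each of the 5 tRNAs in young and old brains (x axis), with 1 point per brain and the mean ± SD of 4 brains at the side. Old female 2 is the lowest old brain for all 5 tRNAs. Its values for mito_tRNA-Trp-CCA (8.61%), mito_tRNA-Asp-GTC (10.1%) and mito_tRNA-Gly-TCC (10.5%) lie below all young brains.

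Males and females were compared with age in the same fit. The female minus male estimates of abundance lay between −0.04 and 0.07 on the log2 scale for the 5 tRNAs, and none of the 69 anticodons passed the test in edgeR (3 had an unadjusted p below 0.05). The estimates for the log2 odds of charging were all above 0 for the 5 tRNAs, from 0.02 for mito_tRNA-Arg-TCG to 0.33 for mito_tRNA-Asp-GTC, and none of 64 anticodons passed, with 0 at an unadjusted p below 0.05. With the 5 included, they were above 0 for 15 of the 17 mitochondrial anticodons and for 38 of all 64. The age by sex interaction passed for none of the 5 tRNAs in either measure (edgeR adjusted p of at least 0.926 in abundance and 0.993 in charging, with 2 fish per age and sex).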

How the data were processed

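The members and lists were chosen with earlier results of these data known. The authors removed the last nucleotide of uncharged tRNAs by oxidation and β-elimination, added a 3:1 mixture of CCA and CC ends of a synthetic E. coli tRNA as a spike-in, used cutadapt 3.5 for trimming, and relied on mim-tRNAseq for alignment and counting. They deposited raw counts, without normalization, per anticodon and, in a second table, per transcript and 3′ end. All per-sample columns were used (0 left out).

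Age changes in abundance came from the quasi-likelihood test of edgeR 4.0.16 in R 4.3.3, run on all anticodons that reached 10 counts in 4 or more samples, with the sample's mitochondrial or nuclear total as library size. Charging and shortened ends were tested with 1 effect per sample, for anticodons with 100 or more such reads per sample. P-values were adjusted by Benjamini-Hochberg over all anticodons (threshold 0.05), and an SE is the log2 change over the root of F. For single values, all 70 relabellings of age gave a two-sided exact permutation test. Exact sign-flip tests compared tRNAs within brains, between neighbours in an order taken from the same brains. DESeq2 1.42.0, limma 3.58.1, other library sizes, filters, factors and each sample left out were alternatives. Named were the 5 tRNAs, at most 3 other mitochondrial tRNAs past the threshold in each direction, the tRNA most like each member and the nuclear tRNAs of the same amino acids. Python 3.11.15 with numpy 2.4.6, pandas 2.3.3, scipy 1.17.1 and matplotlib 3.10.9 was used.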

Additional observations from a re-analysis of the deposited data

Results flagged for a closer look

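Of 56 groups of 4 brains tested for a single sample far from the others, 1 was set apart. By chance roughly 1 in 20 independent groups would be. These groups share brains and counts, so their number cannot be compared with that rate. The difference in log2 odds of charging between the 5 tRNAs and the H-strand tRNAs from the rRNAs to ND2 was 0.30 in young female 1, against 0.15 to 0.16 in the other 3 young brains, a gap of 0.935 of the whole range. Without young female 1 the age change of this difference was −0.21 (exact permutation test, adjusted p = 0.0686).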

How the results depend on the processing

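The fall of mito_tRNA-Asp-GTC and mito_tRNA-Gly-TCC kept its direction in all 19 alternatives and its call in 17, the exceptions being spike-in library size and the exact permutation test per anticodon, which cannot pass with so few brains unless many anticodons reach its smallest p. With spike-in library size 1 anticodon and none of the 5 was called, and the estimates of Trp, Lys and Arg turned to 0.0772, 0.0661 and 0.0521; with the exact permutation test 0 were called (20 at an unadjusted p below 0.05). Leaving out a brain gave 10 to 19 called anticodons (10 without young female 1) and 2 to 3 of the 5 tRNAs.

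The summed difference was −0.345 points as percent of nuclear-encoded reads (exact permutation p = 0.0571) and −0.0677 as log2 ratio to the spike-in (exact permutation p = 0.743), and leaving out a brain gave −6.25 to −5.85 points. Some alternatives were chosen after seeing the data. These were the sum of Trp, Lys and Arg alone, the exact permutation test of shortened ends, and the settings without mito_tRNA-Asn-GTT. Without mito_tRNA-Asn-GTT in the denominator, the 5 tRNAs went from 41.9 to 31.0% of the other mitochondrial reads, and without it in the library size 2 of the 5 were called.

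With the replicate block the exact sign-flip test of 4 pairs cannot go below p = 0.125. Numbers are shared by different fish, so they do not pair samples of one fish. The correlation of same-numbered brains was 0.01, 0.49, 0.51 and −0.33 in abundance and −0.59, −0.08, 0.45 and 0.76 in charging. These mixed values cannot show whether same-numbered brains were handled together. The block gave −6.08 points for the summed share, −0.40, −0.46 and −0.55 for the abundance and −0.24 and 0.26 for the charging relative to the other groups. In edgeR it gave 13 called anticodons in abundance (2 of the 5 tRNAs), and 0 in charging and shortened ends.

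Called anticodons in charging were 4 with the common shift taken out, and 0 with mitochondrial anticodons alone, all 4 end classes, exact permutation tests or the replicate block (edgeR had 21 at an unadjusted p below 0.05 with the settings of the report); leaving out a brain gave 0 to 37. The charging estimates of Asp, Lys, Gly and Arg turned to −0.17, −0.0417, −0.0228 and −0.25 with all 4 end classes, those of Asp, Lys and Arg to −0.0864, −0.0826 and −0.11 with the common shift taken out. Leaving out a brain gave −0.14 to 0.12 for Trp, −0.0583 to 0.27 for Asp, −0.0925 to 0.20 for Lys and −0.0676 to 0.13 for Arg, always with an adjusted p above 0.05. Summed charging differed by −0.762 points with all end classes and −0.0358 points scaled to the spike-in.

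As means over tRNAs, the differences to the other groups were −0.52, −0.35 and −0.56 in abundance and −0.20 and 0.0401 in charging. Leaving out a brain gave −0.29 to −0.21 for charging against the genes up to ND2, and for the gap between compartments 0.56 to 1.16 for Arg, 0.62 to 1.17 for Gly and 0.53 to 0.92 for Lys.

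In shortened ends leaving out a brain gave 0 to 53 called anticodons and 0 to 3 of the 5 tRNAs, and the estimate of Trp was −0.15 for ends in C alone and between −0.00194 and 0.33 with a brain left out. The causes of these changes were not tested. Depth limits the charged share of mito_tRNA-Arg-TCG most, with 1561 reads in young male 2.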
